A study of Mus musculus with 21 samples.

Results

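Fgf5, Pou3f1, Otx2 and Pim2 are genes of the formative and primed epiblast whose signal was higher in day 2 aggregates than in stem cells. The members were chosen by that measured day 0 to day 2 difference, and they are 4 of the 18193 genes on the array, measured by 6 probe sets. The values come from CGR8, an embryonic stem cell line of the mouse, and from embryoid bodies, the aggregates in which such cells begin to form germ layers. Aggregates were grown with ascorbic acid (vitamin C, 100 µM) or without it as the control and were collected at days 2, 3 and 5. Undifferentiated stem cells were collected at day 0. Each of the 7 groups holds 3 arrays, which the labels call biological replicates, and 21 arrays were hybridised in all. The labels give the medium as 10% GMEM for stem cells and 20% IMDM for aggregates, and all cells are of 1 line. Drops held 500 cells in 25 µL, aggregates moved to a shaker after day 2, and 100 ng of total RNA was labelled per array. The submitters took samples further only where ascorbic acid later gave more beating aggregates, so the cultures are a selected set.

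In the mouse embryo, pluripotent cells pass from the naive state of the blastocyst through a formative state to the primed epiblast, from which the primitive streak and the neural plate arise. Stem cells that are allowed to differentiate as aggregates follow a similar order. Fgf5 encodes a secreted fibroblast growth factor that is a standard marker of the epiblast after implantation. Pou3f1 (Oct6) and Otx2 encode transcription factors of the POU and the homeodomain family, both used as markers of formative and primed cells, and both are also known from the early neural plate. Pim2 encodes a serine/threonine kinase that promotes survival and growth, with Pim1 and Pim3 as its closest relatives.

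RefSeq promoter windows of GRCm38.p6 were found for 3 of the 4 genes, Fgf5, Otx2 and Pim2. Pou3f1 has no window here. The 250 bases before the start site were searched on both strands for the octamer bound by POU factors (ATGCAAAT), the core bound by OTX factors (TAATCC), the GC box (GGGCGG) and the TATA box (TATAAA). The windows of Pim2, Fgf5 and 1 of the 4 windows of Otx2 are shown because they carry an octamer, a GC box or an OTX core, and capitals mark those matches, with positions counted from 1 at the 5′ end.
Pim2, chrX:7878056-7878305, plus strand: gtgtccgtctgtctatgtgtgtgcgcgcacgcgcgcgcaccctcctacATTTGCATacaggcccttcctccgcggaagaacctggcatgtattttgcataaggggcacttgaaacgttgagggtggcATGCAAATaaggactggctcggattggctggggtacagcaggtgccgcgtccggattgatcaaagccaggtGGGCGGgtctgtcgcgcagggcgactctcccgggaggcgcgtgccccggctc
Fgf5, chr5:98253934-98254183, plus strand: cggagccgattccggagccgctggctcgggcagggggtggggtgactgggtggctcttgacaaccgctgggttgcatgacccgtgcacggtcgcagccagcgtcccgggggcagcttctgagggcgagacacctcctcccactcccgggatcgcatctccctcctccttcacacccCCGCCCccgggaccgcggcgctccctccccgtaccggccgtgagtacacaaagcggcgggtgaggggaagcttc
Otx2, window 3, chr14:48665110-48665359, minus strand: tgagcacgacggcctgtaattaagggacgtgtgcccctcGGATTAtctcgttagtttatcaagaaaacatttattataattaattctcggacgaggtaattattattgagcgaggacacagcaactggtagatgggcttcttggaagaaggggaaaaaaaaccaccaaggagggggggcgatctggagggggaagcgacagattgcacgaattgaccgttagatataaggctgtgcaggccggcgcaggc
The Pim2 window holds the octamer 2 times, at bases 49 to 56 on the opposite strand and at bases 128 to 135 on the strand printed. Of 32851 windows of this length, 1.6% hold the octamer and 0.0974% hold it at least 2 times. The Fgf5 window holds a GC box on the opposite strand at bases 177 to 182, a match found in 32.7% of windows. Pim2 also holds one, at bases 199 to 204. Otx2 window 3 holds the OTX core on the opposite strand at bases 40 to 45, a match found in 6.25% of windows. Otx2 window 1, not shown, holds the letters TATAAA at bases 59 to 64, with 186 bases between them and the start site. That match is found in 12.4% of windows. These shares are for single windows, and 4 windows of Otx2 were searched. The other 2 windows of Otx2 hold none of these letters. These matches describe letters only, and binding was not measured.

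Levels below are signals on the log2 scale, where 1 unit stands for a 2-fold difference. Where a gene has 2 probe sets, the one that is brighter on average is used, and a gene is called higher or lower where limma's adjusted p over all 18193 genes was under 0.05. In bulk RNA, fewer cells that express a gene and less RNA per cell cannot be told apart. Of all signals in the table, 25% lie under 4.85.

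Fgf5 (probe set 1438883_at) was low in stem cells, high at days 2 and 3 and low again at day 5. At day 0 the 3 arrays stood at 7.51, 5.21 and 5.35. Day 2 aggregates stood at 9.15, 9.63 and 8.50 with ascorbic acid and at 9.02, 9.46 and 8.72 in controls. Day 3 aggregates stood at 10.58, 10.66 and 10.28 with ascorbic acid and at 10.55, 10.95 and 10.46 in controls. Fgf5 thus reached its highest level at day 3, where the arrays of both arms lay above all day 2 arrays. At day 5 the signal was 5.25, 5.52 and 4.77 with ascorbic acid and 6.20, 6.08 and 5.57 in controls. In the order of group means, day 3 control (10.65 ± 0.26, SD, n = 3) and day 3 with ascorbic acid (10.51 ± 0.20, SD, n = 3) overlapped at the top. The day 2 groups overlapped each other, day 0 (6.02 ± 1.29, SD, n = 3) overlapped the day 5 controls (5.95 ± 0.33, SD, n = 3), and day 5 with ascorbic acid (5.18 ± 0.38, SD, n = 3) lay lowest without overlapping its neighbour. The other Fgf5 probe set (1426186_a_at) ran with the first at r = 0.97 over the 21 arrays, as a description. On it the day 3 arrays stood at 8.26, 8.48 and 8.16 with ascorbic acid and at 8.50, 8.73 and 7.97 in controls, and the day 5 arrays at 5.58, 5.75 and 5.97 with ascorbic acid and at 5.93, 5.85 and 6.24 in controls.

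Pou3f1 (probe set 1460038_at) was highest at day 2, a day before Fgf5. At day 0 it stood at 9.99, 5.83 and 6.28. Day 2 aggregates had 10.50, 10.95 and 10.69 with ascorbic acid and 10.26, 10.56 and 10.82 in controls. Day 3 aggregates had 9.18, 8.88 and 10.57 with ascorbic acid and 8.47, 8.85 and 10.39 in controls. Replicate 3 was high at day 3 in both arms, and without it the day 3 arrays lay below all day 2 arrays. At day 5 the signal was 5.01, 5.42 and 5.10 with ascorbic acid and 4.92, 4.82 and 5.13 in controls, close to that 25% limit. Groups next to each other in level overlapped from day 2 with ascorbic acid (10.71 ± 0.23, SD, n = 3) down to day 0 (7.37 ± 2.28, SD, n = 3), and both day 5 groups lay below all others and overlapped each other. Its other probe set (1422068_at) ran with it at r = 0.95 over the 21 arrays, as a description.

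Otx2 (probe set 1425926_a_at) was high at days 2 and 3 and spread widely among the arrays of days 0 and 5. At day 0 it stood at 9.76, 7.96 and 5.73. Day 2 aggregates had 9.81, 9.94 and 9.38 with ascorbic acid and 9.31, 9.53 and 9.55 in controls. Day 0 replicate 1 lay above the 3 day 2 controls, so the groups overlapped. Of the 4 genes, Otx2 is the only one whose day 0 and day 2 arrays overlapped. Day 3 aggregates had 10.24, 10.30 and 10.30 with ascorbic acid and 10.45, 10.51 and 10.20 in controls. At day 5 the signal was 8.20, 7.93 and 5.73 with ascorbic acid and 7.99, 8.05 and 5.60 in controls, so replicate 3 was low in both arms, as it was at day 0. The highest means were day 3 control (10.39 ± 0.16, SD, n = 3) and day 3 with ascorbic acid (10.28 ± 0.03, SD, n = 3), which overlapped, and the day 3 arrays of both arms lay above all day 2 arrays. Day 0 overlapped the day 2 controls above it and day 5 with ascorbic acid below it.

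Pim2 (probe set 1417216_at) had the highest signals of the 4 probe sets at days 2 and 3, which sets no order between the genes since probe sets differ in brightness. At day 0 it stood at 9.26, 7.36 and 6.99. Day 2 aggregates had 11.16, 11.08 and 10.69 with ascorbic acid and 11.18, 11.31 and 10.94 in controls. Day 3 aggregates had 11.52, 11.54 and 11.81 with ascorbic acid and 11.51, 11.61 and 11.68 in controls, all above the day 2 arrays. At day 5 it stood at 7.35, 7.56 and 7.18 with ascorbic acid and at 6.97, 7.09 and 6.71 in controls, and these groups did not overlap. The top mean was day 3 with ascorbic acid (11.62 ± 0.16, SD, n = 3), which overlapped day 3 control (11.60 ± 0.09, SD, n = 3). Day 0 (7.87 ± 1.22, SD, n = 3) overlapped day 5 with ascorbic acid (7.36 ± 0.19, SD, n = 3).

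**Figure D1:**
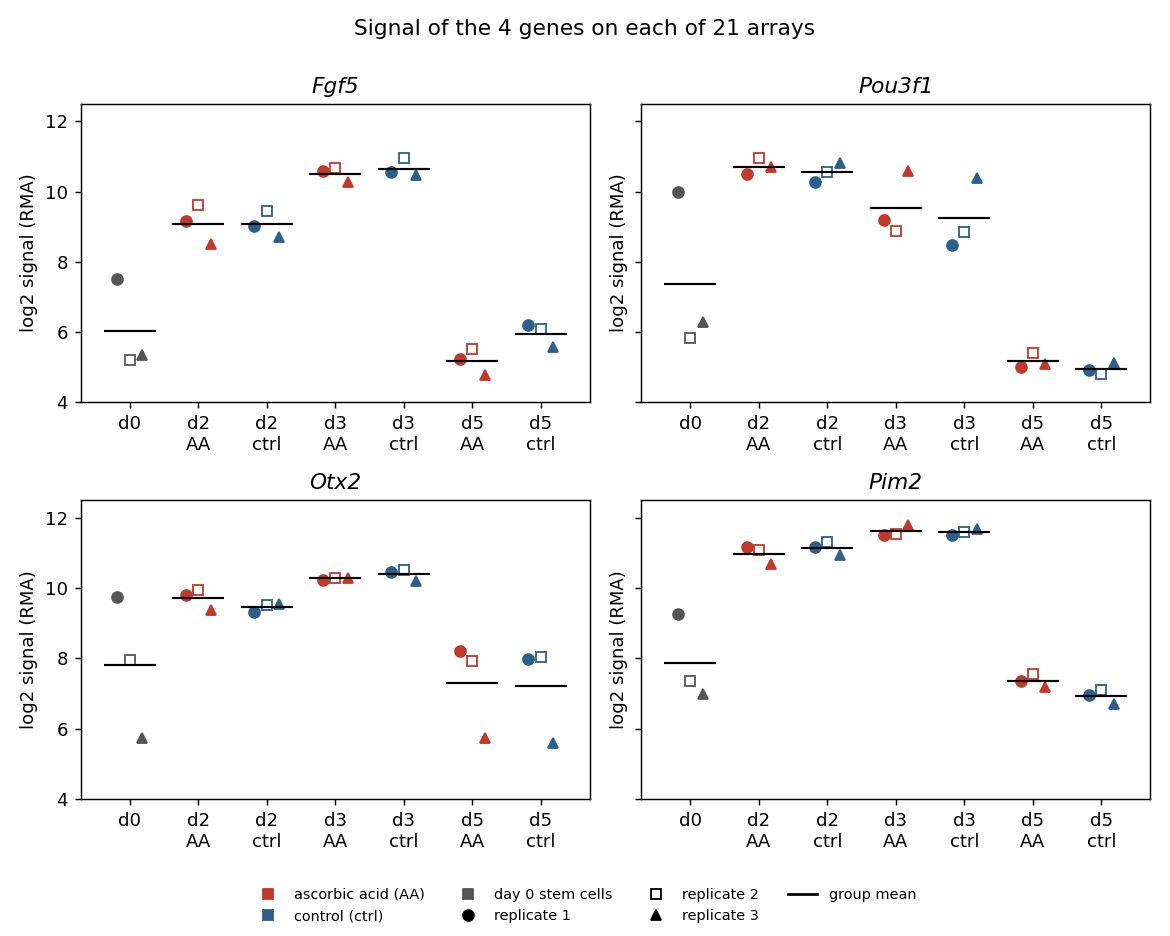
Log2 signal of Fgf5, Pou3f1, Otx2 and Pim2 on each of the 21 arrays, by day, with ascorbic acid left of control and bars at the group means. All 4 genes were higher at days 2 and 3 than at day 5, and the 3 day 0 arrays were spread, with replicate 1 highest in each gene.

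The day 0 to day 2 difference chose the genes, and its values are given as a description with no test. With ascorbic acid, day 2 minus day 0 was 3.07 for Fgf5, 3.35 for Pou3f1, 1.89 for Otx2 and 3.11 for Pim2. In controls it was 3.04 for Fgf5, 3.18 for Pou3f1, 1.65 for Otx2 and 3.27 for Pim2. Among 18193 genes ranked by the control difference, Pim2 was at rank 1, Pou3f1 at rank 2, Fgf5 at rank 3 and Otx2 at rank 54. Both comparisons use the same 3 day 0 arrays, and the growth medium and culture form differ between day 0 and the aggregates, so medium and day cannot be told apart. In controls 4.8% of all genes were called higher and 6.99% lower (11.8% in all), and 13.7% were called with ascorbic acid, and nothing is read from the members' count here. As a measured value beside it, the 3′ probe set of Actb exceeded its 5′ probe set, a gap that widens as RNA degrades. The gap was 1.22, 1.40 and 0.94 in day 2 controls and 0.91, 1.08 and 0.91 at day 2 with ascorbic acid. At day 0 the gap was 0.79, 0.82 and 0.87. Its part in the difference was not tested. All 4 day 2 means were above the day 0 mean, but Fgf5, Otx2 and Pim2 had their highest mean at day 3.

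Day 0 replicate 1 stood apart from its group in the members and in the genes around them. Its correlation over all genes was 0.969 and 0.966 with the other stem cell arrays, which had 0.989 between them, and it had 0.982 with day 2 control replicate 1. The mean over 14 naive pluripotency genes was 8.68 on it, against 10.41 and 10.68 on the other day 0 arrays, and it was lowest in 13 of the 14. The mean over 16 other formative and primed epiblast genes was 8.49 on it, against 7.70 and 7.38, and it was highest in 12 of the 16. Without it, day 2 control minus day 0 was 3.79 for Fgf5, 4.49 for Pou3f1, 2.62 for Otx2 and 3.97 for Pim2. Which array describes these stem cells cannot be told from the labels.

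Day 3 replicate 3 stood apart in both arms. The mean over 10 primitive streak genes was 6.75 on it with ascorbic acid, against 8.68 and 8.88 on the other 2 arrays, and 6.83 in controls, against 8.97 and 9.14. It was lowest in all 10 of these genes in both arms. Among the day 3 arrays of each arm, Pou3f1 and Pim2 were highest and Fgf5 was lowest on it. Without the replicate 3 array of day 3, day 3 minus day 2 for Pou3f1 was -1.68 with ascorbic acid and -1.89 in controls.

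**Figure D2:**
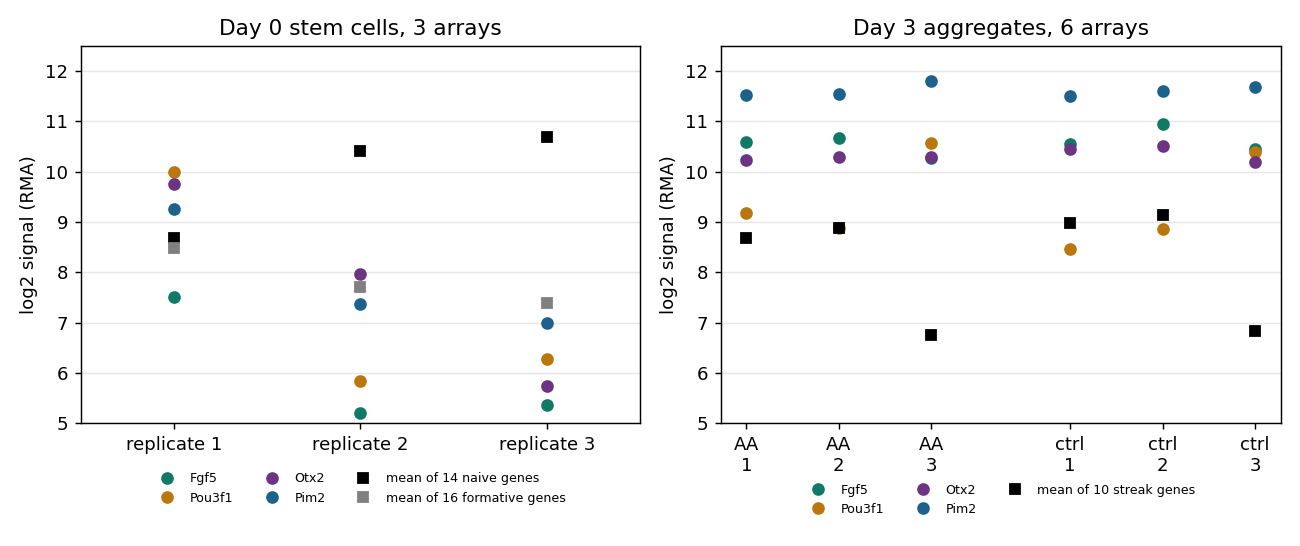
Log2 signal of the 4 genes on each day 0 array and on each day 3 array, with ascorbic acid (AA) left of control (ctrl), and the mean of gene lists as squares. Day 0 replicate 1 has low naive and high formative means and high members, and day 3 replicate 3 has a low streak mean and a high Pou3f1 in both arms.

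From day 2 to day 3 the fit of all 21 arrays called Fgf5 in controls and no other member in either arm. The day 2 arrays also entered the choice of the members, so this step is not independent of it. Day 3 was higher by 1.59 ± 0.42 (SE, n = 3, 3-fold) in controls, with limma's adjusted p of 0.0298, in a comparison where 4.86% of all genes were called higher, 0.945% lower and 5.81% in either direction. With ascorbic acid the Fgf5 difference was 1.41 ± 0.42 (SE, n = 3), with limma's adjusted p of 0.0598, where 3.41% of all genes were called higher, 1.29% lower and 4.69% in either direction, so 0 of the 4 passed there. Pou3f1 differed by -1.17 ± 0.71 with ascorbic acid and by -1.31 ± 0.71 in controls, Otx2 by 0.57 ± 0.74 and 0.92 ± 0.74, and Pim2 by 0.65 ± 0.35 and 0.46 ± 0.35 (SE, n = 3), with limma's adjusted p from 0.308 to 0.808. The widely spread day 0 arrays enter the shared error of this fit. In a fit without them, chosen after seeing the data, the standard error was 0.26 for Fgf5 and 0.39 for Pou3f1. There limma's adjusted p for Fgf5 was 0.00202 with ascorbic acid and 0.000854 in controls, and for Pou3f1 0.079 and 0.0412. For Pim2 it was 0.00827 and 0.0519, and 7.76% and 9.35% of all genes were called in that fit. The Fgf5 call in controls was lost when day 3 control replicate 1 or 2, or day 2 control replicate 1 or 3, was left out, with limma's adjusted p from 0.0772 to 0.155, and after renewed quantile normalization (1.42, limma's adjusted p of 0.0661). With only the 2 compared groups in the fit, limma called 4 of 4 members with ascorbic acid (3 higher and Pou3f1 lower) and 3 of 4, all higher, in controls. Of the 18193 genes, that fit called 1122 higher and 589 lower with ascorbic acid, and 924 higher and 175 lower in controls.

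The day 3 minus day 2 differences of Fgf5 and Pou3f1 had opposite signs. The difference of Fgf5 minus that of Pou3f1 was 2.58 with ascorbic acid and 2.90 in controls, and the day 3 and day 2 values of this difference did not overlap in either arm. The exact two-sided permutation p was 0.1 in each arm (0.133 after adjustment over the 12 comparisons made among the members). This is the smallest p that 3 against 3 arrays can give, so the test could not pass 0.05, and the day 2 values in it also chose both genes. On day 3 replicate 3 the difference of Fgf5 and Pou3f1 was -0.29 with ascorbic acid and 0.07 in controls, against values of 1.40 and 1.78, and of 2.08 and 2.10, on the other arrays.

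**Figure D3:**
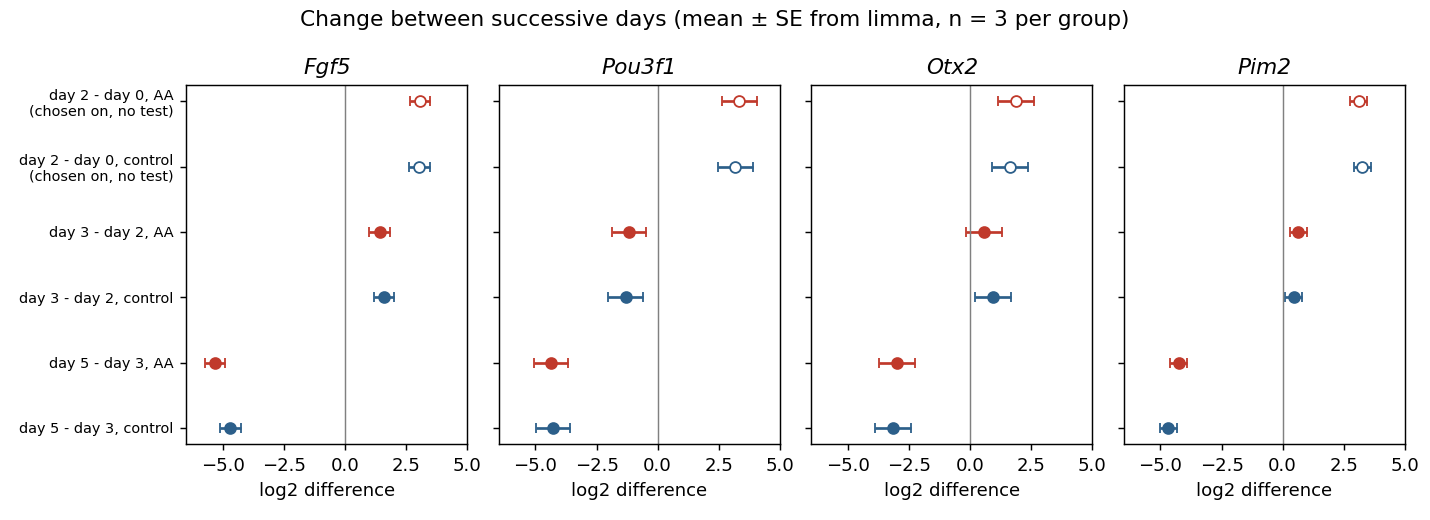
Differences between successive days in log2 units for Fgf5, Pou3f1, Otx2 and Pim2, with ascorbic acid (AA) above control, as means with standard errors from limma (n = 3 per group). Open points are the step that chose the genes, all day 5 minus day 3 points lie below 0, and from day 2 to day 3 Pou3f1 lies below 0 and Fgf5 above it.

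From day 3 to day 5 all 4 genes fell in both arms. With ascorbic acid, Fgf5 fell by 5.33 ± 0.42 (SE, n = 3, 40.1-fold), Pou3f1 fell by 4.37 ± 0.71 (20.6-fold), Otx2 fell by 2.99 ± 0.74 (7.96-fold) and Pim2 fell by 4.26 ± 0.35 (19.2-fold), with limma's adjusted p from 1.79e-08 to 0.00657. In controls, Fgf5 fell by 4.70 ± 0.42 (SE, n = 3, 26.1-fold), Pou3f1 fell by 4.28 ± 0.71 (19.4-fold), Otx2 fell by 3.17 ± 0.74 (9.02-fold) and Pim2 fell by 4.68 ± 0.35 (25.6-fold), with limma's adjusted p from 7.34e-09 to 0.00424. Of all genes, 8.92% were called lower and 9.21% higher with ascorbic acid (18.1% in all), and 9.25% were called lower and 9.09% higher in controls (18.3% in all), beside 4 of 4 members called lower. Days 3 and 5 are not part of the day 0 to day 2 difference, but the members were chosen with earlier results of these data known. This step may therefore not be independent of the choice. In the same step pluripotency genes fell too. Nanog fell by 5.58 ± 0.35 with ascorbic acid and fell by 5.63 ± 0.35 in controls (SE, n = 3). Pou5f1 fell by 4.91 ± 0.25 with ascorbic acid and fell by 5.14 ± 0.25 in controls, and Sox2 fell by 3.44 ± 0.43 with ascorbic acid and fell by 3.45 ± 0.43 in controls. Their part in the fall of the members was not tested. Otx2's fall with ascorbic acid had limma's adjusted p of 0.05 and a value of -2.22 without day 5 replicate 3 of that arm, the low array, and so lost its call.

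Ascorbic acid against control was tested at each day, and no member passed in the unpaired test. The unpaired fit called 0 of 4 at days 2, 3 and 5, where 0.0055%, 0% and 0.0605% of all genes were called, and 0 of 4 in the average over days, where 0.0275% were. None of the 4 had an unadjusted p under 0.05 in any of these (the lowest was 0.0817, for Fgf5 at day 5), against 1341, 269, 590 and 877 of all genes. At day 2 the differences were 0.03 for Fgf5, 0.17 for Pou3f1, 0.25 for Otx2 and -0.17 for Pim2, with 95% confidence intervals of -0.87 to 0.93, -1.35 to 1.68, -1.34 to 1.84 and -0.91 to 0.58. At day 3 they were -0.15 for Fgf5, 0.31 for Pou3f1, -0.11 for Otx2 and 0.02 for Pim2. At day 5 the interval was -1.67 to 0.13 for Fgf5 and -0.31 to 1.19 for Pim2. Day 2 control arrays also entered the choice of the members, so the day 2 values are not independent of it.

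The labels do not say whether the treated and the control array of a day and replicate number share a culture. Such arrays were taken as pairs because their deviations correlated in all 9 pairs, at r from 0.178 to 0.679. Calls within pairs rest on that reading. In the fit within those pairs, 2 of the 4 genes were called at day 5, where 0.956% of all genes were. Fgf5 was lower with ascorbic acid by 0.77 ± 0.11 (SE, 3 pairs, 1.71-fold), with limma's adjusted p of 0.00156 and differences of -0.95, -0.56 and -0.80 in the 3 pairs. Pim2 was higher by 0.44 ± 0.08 (SE, 3 pairs, 1.36-fold), with limma's adjusted p of 0.0146 and differences of 0.38, 0.47 and 0.47. Pou3f1 and Otx2 differed by 0.22 ± 0.14 and 0.07 ± 0.12, and they were not called. At day 2 and day 3 the fit within pairs called 0 of 4, where 2.64% and 0.198% of all genes were called, and over the average of days it called Fgf5 at -0.30 ± 0.06 (limma's adjusted p of 0.0225), where 1.94% were called. With 1 pair left out, chosen after seeing the data, Fgf5 kept limma's adjusted p from 0.0047 to 0.0458 and Pim2 had 0.0648 to 0.0819, so the Pim2 call was lost each time. Markers of other cell types differed in the same day 5 fit within pairs, 1 of 8 for neuroectoderm (Zic1, lower with ascorbic acid, -1.82 ± 0.17, limma's adjusted p of 1.54e-05), 2 of 12 for extraembryonic endoderm (Sox7, 0.97 ± 0.13, and Hhex, 0.78 ± 0.15, both higher) and 1 of 8 for fibroblasts (Col1a2, higher, 1.15 ± 0.14). The list mean over arrays was 5.57 to 5.65 with ascorbic acid and 5.74 to 5.96 in controls for neuroectoderm, 7.57 to 8.06 and 7.40 to 7.86 for extraembryonic endoderm, and 6.88 to 7.12 and 6.54 to 7.63 for fibroblasts. The median difference over each list in that fit was -0.03, 0.09 and -0.14, in the same order. Some other markers went the opposite way to the called ones. With ascorbic acid and in controls, Hes5 averaged 5.67 and 5.39, Dab2 9.07 and 9.45, and Col3a1 6.3 and 7.3. The part of these cell types in the Fgf5 and Pim2 differences was not tested. The gap between the 3′ and 5′ probe sets of Actb at day 5 was 1.09, 0.71 and 1.09 with ascorbic acid. In controls it was 0.85, 0.94 and 0.89, and its part in these differences was not tested either.

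The day 5 difference of Fgf5 is at the low end of its range, from 4.77 to 6.20 on the arrays. The 25% limit of the table is 4.85, and array medians ran from 6.05 to 6.19. At day 5 Fgf5 stood at 5.25, 5.52 and 4.77 with ascorbic acid and at 6.20, 6.08 and 5.57 in controls. Its other probe set differed by -0.24 ± 0.12 (SE, 3 pairs), with limma's adjusted p of 0.721 in the fit within pairs over all probe sets. So the call rests on 1 of 2 probe sets, and the fold of the other was 1.18. Whether the effect differs between days was tested by an F test: limma's adjusted p was 1 for all 4 genes in the unpaired fit, where 0.0055% of genes were called, and 0.0531 for Fgf5 and 0.0554 for Pim2 within pairs, where 0.511% were.

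**Figure D4:**
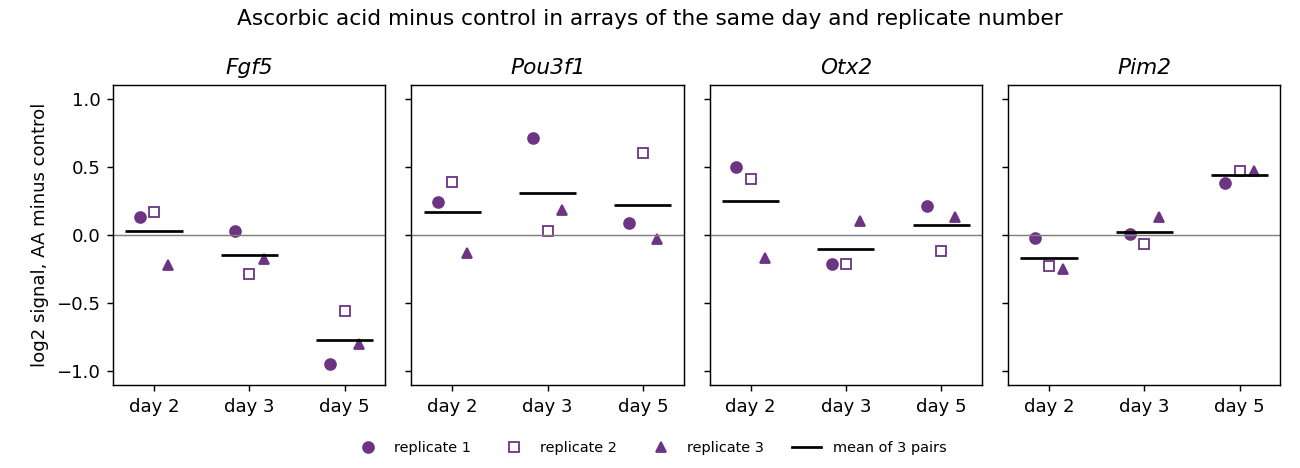
Ascorbic acid minus control in log2 units within each pair of same-numbered arrays for Fgf5, Pou3f1, Otx2 and Pim2 at days 2, 3 and 5. At day 5 all 3 Fgf5 pairs are below 0 and all 3 Pim2 pairs are above 0, and the Pou3f1 pairs at day 3 run from 0.03 to 0.71.

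Across arrays the members ran together, over a time course that all 4 share. All 4 were chosen for being higher at day 2 than at day 0, so r over the 21 arrays is not independent of the choice. Pearson's r over the 21 arrays, as a description, was 0.97 for Fgf5 with Pim2, 0.91 for Pou3f1 with Pim2, 0.89 for Otx2 with Pim2, 0.89 for Fgf5 with Otx2, 0.82 for Fgf5 with Pou3f1 and 0.78 for Pou3f1 with Otx2. Taken as deviations from group means over the 18 aggregate arrays, r was 0.68 for Fgf5 with Pim2, 0.62 for Fgf5 with Otx2 and 0.57 for Otx2 with Pim2. It was 0.29 for Pou3f1 with Pim2, -0.21 for Pou3f1 with Fgf5 and -0.08 for Pou3f1 with Otx2. Over all 21 arrays, with the spread day 0 group included, the deviations of Pou3f1 had r of 0.82 with Pim2, 0.63 with Fgf5 and 0.44 with Otx2. All 21 arrays share 1 line and the treated and control arrays share a day, so these values carry no test.

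Genes most like the members were named by Pearson's r over the 21 arrays among 2251 genes. For the mean of the 4, the most alike were Dnmt3b (a de novo DNA methyltransferase), Ggct and Dll3, each at r = 0.97, and Zic2 and Zic5 (zinc finger transcription factors), each at r = 0.96. Bmerb1 (0.98), Bend3 (0.97) and Plekha1 (0.96) were most like Pou3f1, and Igfbp3 (0.97), Epcam (0.94) and Esrp1 (0.93) were most like Otx2. Zic2 and Syt13 were most like Fgf5, both at 0.96, and Dnmt3b (0.98) and Dll3 (0.97) most like Pim2. Dnmt3b averaged 10.89 at day 5 and 12.89 at day 3 in controls, a fall of 1.99 ± 0.30 (SE, n = 3). The same arrays entered the r that picked it, so this fall is a description with no test.

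Of 9 paralogs of the members, 0 rose and 2 fell from day 0 to day 2 in controls, and 1 rose and 2 fell without day 0 replicate 1. Over all genes, 4.8% were called higher and 6.99% lower in that step, and 1408 and 2306 genes without that array. Pim3 fell by 1.54 ± 0.18 and Pim1 fell by 1.34 ± 0.21 in that step (SE, n = 3), with limma's adjusted p of 2.99e-05 and 0.000354, the step in which Pim2 was higher. Fgf4, a growth factor made by naive stem cells, was called lower at day 3 than at day 2 and fell by 2.46 ± 0.49 with ascorbic acid and fell by 1.97 ± 0.49 in controls (SE, n = 3), with limma's adjusted p of 0.00646 and 0.0222. Otx1 means stayed near the low end of the array in all groups, at 3.85 to 4.21. Pou3f2, Pou3f3 and Pou3f4 did not pass the unpaired test in any comparison. Of the FGF receptors, 3 of 4 rose from day 3 to day 5 in both arms, among them Fgfr3 by 2.54 ± 0.23 with ascorbic acid and 2.62 ± 0.23 in controls, the step in which Fgf5 fell. In that step 9.21% of all genes were called higher with ascorbic acid and 9.09% in controls. In controls 0 of 4 receptors were called from day 0 to day 2 or from day 2 to day 3 by limma.

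FGF to ERK output genes moved in both directions. Of 12 such genes, in controls 2 rose and 1 fell from day 2 to day 3, among them Il17rd, a feedback inhibitor, by 1.27 ± 0.20, and 2 rose and 6 fell from day 3 to day 5. Over all genes, 4.86% were called higher and 0.945% lower in the first of these steps. From day 3 to day 5 it was 9.09% and 9.25%. In the last step Dusp6, a phosphatase of ERK, fell by 2.77 ± 0.23 and Etv5, an ETS transcription factor, fell by 2.42 ± 0.24, and Phlda1 rose by 4.29 ± 0.18 (SE, n = 3 each). The median of the list was -0.58 in that step, beside -0.03 for all genes.

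Of 16 other formative and primed epiblast genes, 7 rose and 0 fell from day 0 to day 2 in controls, and 11 rose without day 0 replicate 1. Over all genes, 874 rose with all arrays and 1408 rose without that array. Sall2, a zinc finger factor, was higher at day 2 by 2.60 ± 0.57, Dnmt3a by 2.15 ± 0.24, Zic2 by 1.87 ± 0.37 and Dnmt3b by 1.86 ± 0.30 (SE, n = 3 each). The list median was 0.74, beside 0.03 for all genes, and 1.21 without day 0 replicate 1. From day 2 to day 3 in controls 2 rose and 1 fell: Dnmt3a, a de novo DNA methyltransferase, fell by 1.17 ± 0.24, and Wnt8a rose by 1.37 ± 0.28. Over all genes, 4.86% were called higher and 0.945% lower there. From day 3 to day 5, 10 of 16 fell and 0 rose in both arms, among them Zic5, which fell by 4.02 ± 0.29 with ascorbic acid and fell by 4.05 ± 0.29 in controls (SE, n = 3). Nodal, a TGF-beta family ligand, fell by 3.48 ± 0.21 with ascorbic acid and fell by 3.73 ± 0.21 in controls. In that step 8.92% of all genes were called lower with ascorbic acid and 9.25% in controls. Of 14 naive genes, 13 fell from day 0 to day 2 in controls, with a median of -2.46, and Klf4 fell by 4.30 ± 0.31 (SE, n = 3). Of all genes, 6.99% were called lower there.

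Of 10 primitive streak genes, 5 rose with ascorbic acid and 7 in controls from day 2 to day 3, and 9 and 10 without day 3 replicate 3. Over all genes, 3.41% and 4.86% were called higher. Without that replicate 935 and 1021 of the 18193 genes were called in either direction, beside 854 (4.69%) and 1057 (5.81%) with all arrays. Eomes, a T-box factor, rose by 4.64 ± 0.43 with ascorbic acid and 4.17 ± 0.43 in controls (SE, n = 3). The streak list median at that step was 2.54 and 2.81. Lists of other cell types were measured beside the members: from day 3 to day 5 in controls 8 of 12 extraembryonic endoderm markers and 6 of 8 fibroblast markers rose and 0 fell, while 0 of 8 neuroectoderm markers rose and 2 fell, and 2 of 4 trophoblast markers rose. Of all genes, 9.09% were called higher and 9.25% lower in that step. Not all of the endoderm markers rose. In control means from day 3 to day 5, Afp went from 5.22 to 5.42 and Apoa1 from 6.95 to 6.82. Amn went from 6.24 to 5.89 and Cubn from 6.09 to 5.72. The mean over the endoderm list was 7.40 to 7.86 at day 5 in controls and 6.62 to 6.75 at day 3, and over the fibroblast list 6.54 to 7.63 and 5.99 to 6.13. Their part in the fall of the members was not tested. Pou3f1 and Otx2 are also expressed in early neural tissue, and the mean over the 8 neuroectoderm markers was 5.61 to 5.86 at day 0, 5.66 to 5.98 at day 2 and 5.74 to 6.16 at day 3. From day 0 to day 2 in controls, 1 of these 8 was called higher and 0 lower, and 3 were higher without day 0 replicate 1. Of all 18193 genes, 874 and 1408 were called higher in these 2 fits. With ascorbic acid 0 of the 8 were called in either fit.

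**Figure D5:**
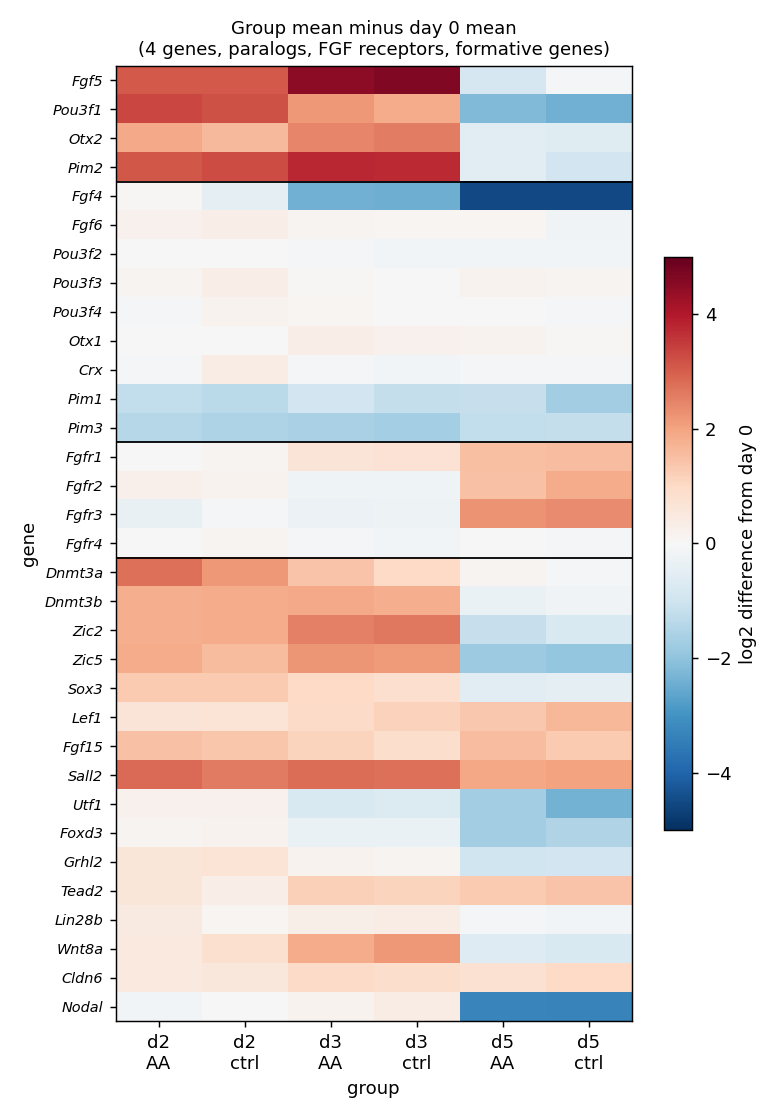
Group mean minus day 0 mean in log2 units (red higher, blue lower) for the 4 genes, 9 paralogs, 4 FGF receptors and 16 other formative genes, by day, with ascorbic acid (AA) left of control. The members and genes such as Zic2 and Dnmt3b are red at days 2 and 3 and pale or blue at day 5, Pim1 and Pim3 are blue throughout, and Fgfr2 and Fgfr3 turn red at day 5.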

How the data were processed

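Transcripts were measured on 21 Affymetrix mouse arrays, 3 for each of 7 groups. Per the submitters' processing notes, the authors deposited log2 signals made with RMA (background correction, quantile normalization and a robust summary of each probe set). In the sources used here neither its version nor a genome build is given. The table holds 45101 probe sets, with array medians from 6.05 to 6.19, and 0 pairs of arrays were identical. Of the probe sets, 34958 carry 1 gene symbol in the platform annotation, 932 several and 9211 none, and all 6 probe sets of the members have 1. A RefSeq table held 34754 of those with 1 symbol and changed 0 symbols. Each gene was taken from its probe set with the highest mean (18193 genes). The values were tested as deposited with limma 3.58.1 in R 4.3.3 (lmFit, eBayes with an intensity trend, 7 group means, two-sided), and called genes had p under 0.05 after Benjamini-Hochberg adjustment across the 18193.

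Replicate numbers were taken to pair treated and control arrays of a day, which the labels do not state. The deviations of such arrays from group means correlated at 0.178 to 0.679 in 9 of 9 pairs, above the limit of 0.1. A fit with the 9 pairs as blocks therefore stands beside the unpaired one. The labels name biological replicates without saying which share a culture, so p-values measure the spread between these arrays. The number of arrays limits the precision. The members and the gene lists were chosen with earlier results of these data known. Named genes are the members, up to 4 called genes with the largest differences per list and comparison, any FGF receptor or paralog, and the 5 genes with the highest Pearson r to each member or to their mean, among genes with an SD of at least 0.5. Promoters are from RefSeq, GRCm38.p6. Alternatives were the pairing, a block across days, fits of only the groups compared, renewed normalization, centring, low-signal filters, all or averaged probe sets, and leaving out arrays.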

Additional observations from a re-analysis of the deposited data

Results flagged for a closer look

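Pim2 differed in the direction of its ascorbic acid minus control difference between days. At day 5 all 3 pairs were above 0 (0.38, 0.47 and 0.47), and at day 2 all 3 were below 0 (-0.02, -0.23 and -0.25), a difference between the days of 0.61. The F test over the 3 days had limma's adjusted p of 1 in the unpaired fit and 0.0554 within pairs, so the difference between days did not pass the test in either. The day 2 control arrays also took part in choosing the gene.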

How the results depend on the processing

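All 4 members fell from day 3 to day 5 in both arms under every setting, except that Otx2 with ascorbic acid lost its call (-2.22) without 1 array; counts were 3 to 4 with ascorbic acid and 4 in controls. The replicate block moved the day 5 ascorbic acid count to 2 (Fgf5 and Pim2) and the average over days to 1 (Fgf5), and changed no other call of a member on ascorbic acid. With a pair left out, the paired day 5 count was 1 each time and the day 2 count 0 to 1 (Otx2, adjusted p 0.031, without pair 3). From day 2 to day 3 in controls the count of 1 became 3 with only the groups compared, 2 without the day 0 arrays (chosen after seeing the data) and 0 after renewed quantile normalization, where Fgf5 was 1.42 (adjusted p 0.0661), and 0 to 1 over single arrays left out. With ascorbic acid the count of 0 became 1 with a replicate block across days, 4 with only the groups compared, 1 with probe sets averaged and 2 without the day 0 arrays. Over all genes, the fit of only the groups compared called 1122 higher and 589 lower with ascorbic acid, and 924 and 175 in controls. With ascorbic acid the block called 877 and 362, and averaged probe sets 483 and 247. Without the day 0 arrays 7.76% were called with ascorbic acid and 9.35% in controls. Small uncalled ascorbic acid differences turned sign: Fgf5 at day 2 was -0.09 after renewed quantile normalization and -0.06 with probe sets averaged. Over single arrays left out, Fgf5 ran from -0.24 to 0.32 at day 2, Pou3f1 from -0.21 to 0.88 and Pim2 from -0.07 to 0.07 at day 3, and Otx2 from -0.73 to 0.85 at day 5 and -0.20 to 0.33 on average. The causes were not tested.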

Other observations

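Within pairs, some relatives of the members differed between ascorbic acid and control. Dnmt3a, a de novo DNA methyltransferase, was higher with ascorbic acid at day 2 by 0.61 ± 0.10 (SE, 3 pairs), with limma's adjusted p of 0.00345, and Klf4, a naive pluripotency factor, was lower by 0.68 ± 0.13 with limma's adjusted p of 0.0109. Fbxo15, another gene of the naive list, was higher by 0.68 ± 0.17 (limma's adjusted p of 0.0395), so that list had 1 gene called in each direction. Among the paralogs, Crx was lower by 0.45 ± 0.11 (limma's adjusted p of 0.0447). Of the FGF to ERK outputs at day 2, Spry2, a feedback inhibitor, was lower by 0.49 ± 0.10 (limma's adjusted p of 0.0184) and Phlda1 higher by 0.44 ± 0.11 (limma's adjusted p of 0.0415), in a comparison where 2.64% of all genes were called. The unpaired fit called 0 of the 16 formative, 14 naive and 12 output genes at day 2, where Dnmt3a had an unadjusted p of 0.0189. The second Pou3f1 probe set was higher with ascorbic acid at day 5 in 3 of 3 pairs (0.57, 0.57 and 0.33), with a mean of 0.49 ± 0.15 (SE) and limma's adjusted p of 0.25 within pairs, while the first had differences of 0.09, 0.60 and -0.03.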
